A study of Mus musculus with 16 samples.

Results

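Cells take up and release amino acids through carrier proteins that the solute carrier (SLC) nomenclature sorts into families. The genes described here are those of the mouse families Slc1, Slc3, Slc7, Slc36, Slc38 and Slc43. They were taken by symbol from the table of 54532 genes, leaving out pseudogenes and 1 further Slc7 gene that the rule excludes. This gave 44 genes, of which 41 are carriers or carrier subunits and 3 (Slc7a6os, Slc36a1os and Slc36a3os) are separate genes named for lying on the opposite strand near a carrier. The rule itself used no measured value, although members were chosen with earlier results of these data known.

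The RNA came from microglia, the macrophages that live in neural tissue, of retinas of Cx3cr1CreERT2:Rosa26-tdTomato reporter mice at postnatal day 17. In these mice the Cx3cr1 gene drives a tamoxifen-dependent Cre that switches on the red reporter, and all pups of both groups received tamoxifen (5 µl at 21 mg per ml) on postnatal day 1. The OIR group had oxygen-induced retinopathy, in which a period of high oxygen and the return to room air leave the retina short of oxygen and with abnormal vessels. The nonOIR group is described as healthy retina, and the labels say nothing more of its treatment. The sort kept cells with tdTomato, CD11b and low CD45 that lacked Ly6C and Ly6G. Cx3cr1 is also active in border macrophages and monocytes, so the reporter alone does not single out microglia. There were 8 OIR and 8 nonOIR libraries, and the labels do not say that each came from its own animal. Every p-value here therefore sets a difference against library-to-library spread, part of which may be technical.

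Library totals ran from 20771745 to 30001463 counts in OIR and from 13591651 to 27972049 in nonOIR. In each group 5 libraries carry the first lane code in their description and 3 the second. Whether the code also marks a batch of mice or of preparation is not in the labels, and 24.8% of all genes tested differed between the codes. All 12 microglial markers that were checked were present, and their summed level lay between 39480 and 63720 CPM in OIR and between 63210 and 79660 in nonOIR. A CPM value is a count scaled to a common library total, here after TMM scaling, which corrects library totals for differences in composition. Of the monocyte and granulocyte markers, Ly6c2 and Ly6g had 0 counts in all 16 libraries, while the list's sum was 26.8 to 76.2 CPM in OIR and 8.50 to 21.9 in nonOIR. The 12 endothelial and pericyte markers together reached 16.0 to 38.9 CPM in OIR and 25.8 to 53.8 in nonOIR. The 12 photoreceptor markers summed to 44.5 to 446 CPM in OIR and 69.9 to 556 in nonOIR, so photoreceptor genes had counts in every library. Summed markers of border macrophages were 234 to 653 CPM in OIR and 121 to 430 in nonOIR. With the second lane code they were 622 to 653 CPM in OIR and 121 to 305 in nonOIR. With the first they were 234 to 378 and 146 to 430. Of these markers 0 of 9 tested ones passed, with a median log2 fold change of 1.36 (the lowest edgeR adjusted p was 0.0624, for Folr2). Of the inner retinal neuron markers 2 of 6 tested fell (Snap25 and Calb2), with sums of 38.6 to 67.9 CPM in OIR and 62.2 to 103 in nonOIR. Both tested erythroid markers rose, Hbb-bs at 80.1 CPM in OIR and 3.31 in nonOIR and Hbb-bt at 12.8 and 1.38 (means of 8), and the sums of that list were 1.96 to 292 CPM in OIR and 0 to 29.1 in nonOIR. The part of these other cell types in the members' values was not tested. In bulk RNA of this kind, fewer cells of a type and less RNA per cell cannot be told apart. The library farthest from the median was OIR replicate 6 on the first principal component (48.2% of the variance), which separated the groups. It was nonOIR replicate 7 on the second (13.3%) and OIR replicate 1 on the third (7.25%). Results that rest on OIR replicate 1 are given with and without it.

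As background, the families divide the work between them. Slc3 proteins are heavy chains that carry Slc7 light chains to the cell surface, where the pair exchanges large neutral or cationic amino acids. Slc1 carriers take up glutamate or exchange small neutral amino acids, and Slc38 carriers move glutamine and other small neutral amino acids with sodium. Slc36 includes carriers that couple transport to protons, and Slc43 includes carriers of branched-chain and aromatic amino acids. Some members sit in the lysosomal membrane, where amino acids released by protein breakdown leave the organelle and are sensed by the growth kinase complex mTORC1. Microglia digest large amounts of taken-up protein, and they take part in clearing glutamate from neural tissue.

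Of the 44 genes, 28 reached 1 CPM, here without TMM scaling, in at least 1 library. The other 16 stayed under 1 CPM in all 16 libraries and are called not expressed here, and 10 of them had a count in some library. Another 4 (Slc1a1, Slc1a2, Slc1a7 and Slc7a2) passed 1 CPM in some library but had too few counts for the test, which left 24 tested genes. Between OIR and nonOIR, 3 of the 24 changed. The test was edgeR's quasi-likelihood test with a threshold of 0.05 on p adjusted over all 12496 genes tested. Slc43a3, which encodes a purine nucleobase carrier, rose, and the glutamine carrier gene Slc38a2 and the lysosomal arginine sensor gene Slc38a9 fell. The share of tested members that changed, 12.5%, was close to the 10.9% of all genes tested that did (6.39% higher and 4.56% lower). The members' median log2 fold change was 0.0236, against -0.0305 for all genes tested. None of the 24 had groups free of overlap, where 2.02% of all genes did (1.34% higher and 0.688% lower in OIR). The authors' deposited table gives an adjusted p for 26 members, of which 5 lie under 0.05, against 14.4% of all genes with a value. These 5 are the same 3 and Slc1a3 and Slc38a6. Summed over all 44 genes, the level was 2612 ± 385 CPM in OIR and 2640.0 ± 368 in nonOIR (SD, n = 8). This sum split by lane code, from 2690 to 3128 CPM over the libraries of the first and from 2168 to 2272 over those of the second.

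**Figure D1:**
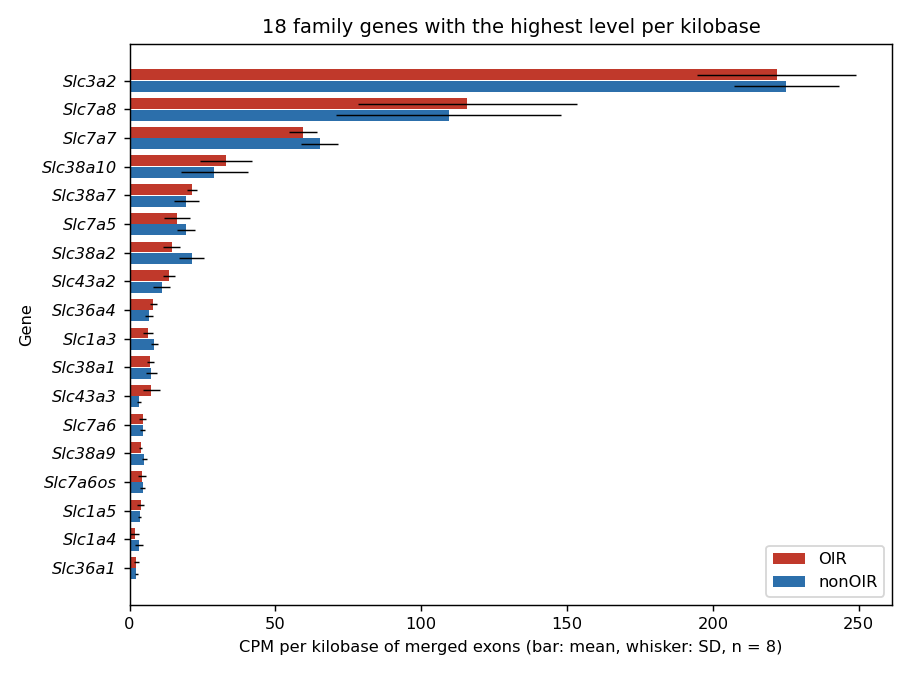
Mean level per kilobase of merged exons (CPM per kb, horizontal axis, linear from 0) of the 18 members with the highest values, with OIR in red and nonOIR in blue and whiskers for the SD over 8 libraries. Slc3a2 stood highest at 222 in OIR and 225 in nonOIR, followed by Slc7a8 and Slc7a7 on these means over both lane codes.

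Levels of different genes were compared per kilobase of merged exons, from the GENCODE M21 annotation, which overstates the length of genes with rarely used exons. On that scale the heavy chain gene Slc3a2 (also called CD98 or 4F2hc) was the highest member, at 222 ± 27.2 CPM per kb in OIR and 225 ± 18.04 in nonOIR (SD, n = 8). Slc7a8 followed with 116 ± 37.5 and 109 ± 38.5, then Slc7a7 with 59.4 ± 4.69 and 65.3 ± 6.34. Below them were Slc38a10 at 33.0 and 29.1, Slc38a7 at 21.4 and 19.5 and Slc7a5 at 16.4 and 19.4 CPM per kb in OIR and nonOIR. By the mean over all libraries, the heavy chain and 3 light chains of the 4F2hc system thus held 4 of the 6 highest places. The sixth was all but shared with Slc38a2, at 14.4 and 21.3 CPM per kb in OIR and nonOIR, whose nonOIR level was above that of Slc7a5. In OIR the order of the first 8 genes was the same in both lanes, and in nonOIR it was not. In the 3 nonOIR libraries of the second lane Slc7a7 (69.7 ± 4.57 CPM per kb) was above Slc7a8 (64.0 ± 4.35), and Slc38a10 (16.0 ± 0.789) came seventh, after Slc38a2, Slc7a5 and Slc38a7 at 17.5, 17.1 and 17.1. Those 4 differed by less than the spread between libraries of Slc38a2, Slc7a5 or Slc38a7.

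Because Slc38a2 and Slc38a9 were both called lower, the letters upstream of their start sites are shown. Whether the genes share any control was not tested. Each run below is 235 bases, read 5′ to 3′ on the gene's strand, and ends 15 bases short of the RefSeq start (RefSeq, build GRCm38.p6). Slc38a2 lies on the minus strand at chr15:96699744-96699978 and Slc38a9 on the plus strand at chr13:112660516-112660750. Capitals mark the single match to any of the 4 motifs that were searched.
Slc38a2: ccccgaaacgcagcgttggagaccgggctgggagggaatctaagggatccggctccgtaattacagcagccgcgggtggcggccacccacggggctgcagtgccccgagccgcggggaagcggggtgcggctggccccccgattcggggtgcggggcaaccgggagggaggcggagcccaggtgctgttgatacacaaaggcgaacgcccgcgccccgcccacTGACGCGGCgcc
Slc38a9: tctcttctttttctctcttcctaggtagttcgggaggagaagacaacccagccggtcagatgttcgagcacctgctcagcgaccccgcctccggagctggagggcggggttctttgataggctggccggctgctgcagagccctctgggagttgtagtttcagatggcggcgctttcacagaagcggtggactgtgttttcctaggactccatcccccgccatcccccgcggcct

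The motifs, searched on both strands, were the amino acid response element TGATGNAA, the E-box core CACGTG of the lysosomal CLEAR element, the hypoxia response core ACGTG (which lies within CACGTG) and the antioxidant response core TGACNNNGC. Windows were held for 33 of the 44 members. Slc43a3, the member called higher, had no window and could not be searched. The capitals in Slc38a2 match the antioxidant core, which 9.44% of all 32851 windows of this length hold. No letters of the Slc38a9 window match any of the 4. Over the members' 44 windows, the amino acid response element was found in 2 (both of Slc7a7) against 3.29% of all windows, CACGTG in 7 against 5.49%, ACGTG in 12 against 15.5% and the antioxidant core in 3. A match is a run of letters and not a bound site.

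The heavy chains came first in the comparison of the groups. Slc3a2 (chromosome 19, 8706882 to 8723369, build mm10) had a lowest, median and highest level of 702, 802 and 889.7 CPM in nonOIR and of 649, 807 and 913 CPM in OIR. The OIR range enclosed the nonOIR range. The log2 fold change was -0.02 with a 95% interval from -0.19 to 0.15 (edgeR adjusted p = 0.908). Slc3a1 (rBAT), the heavy chain of kidney and gut epithelia, was not expressed.

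Among the 9 genes grouped here as light chains, 4 were expressed and none passed the test. Slc7a8 (LAT2), an exchanger of neutral amino acids, ran from 295 over a median of 631 to 733 CPM in nonOIR and from 338 over 606 to 831 CPM in OIR (log2 fold change 0.08, 95% interval -0.40 to 0.56). Its wide spread followed the lane code, as described further on. Slc7a7 (y+LAT1), which exports cationic amino acids, ran from 179 over 216 to 243 CPM in nonOIR and from 174 over 202 to 219 CPM in OIR (log2 fold change -0.14, 95% interval -0.29 to 0.02). Slc7a5 (LAT1), the exchanger of large neutral amino acids found on many dividing cells, ran from 56.4 over 72.2 to 89.7 CPM in nonOIR and from 43.1 over 58.7 to 93.6 CPM in OIR. For Slc7a5 the log2 fold change was -0.24, with an interval from -0.55 to 0.07 (edgeR adjusted p = 0.337). For Slc7a5 and Slc7a7 alike, the OIR median was exceeded by 7 of 8 nonOIR libraries, yet the groups overlapped. Slc7a6 (y+LAT2) was lower, at 13.4, 20.8 and 24.9 CPM in nonOIR and 11.2, 20.7 and 28.9 CPM in OIR for the lowest, median and highest library. Slc7a6os, which lies 2.0 kb from Slc7a6 on the other strand and encodes a protein that is not a carrier, stood at similar levels (19.6 and 18.4 CPM, group medians). No exon of either gene overlaps the other. The remaining light chains were not expressed: Slc7a10 (Asc-1) and Slc7a13 had at most a few counts in a library, and Slc7a9, Slc7a12 and Slc7a15 had 0 counts in all 16 libraries. A count of 0 allows up to 3 counts in a library, or 0.221 CPM in the smallest one.

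The make-up of the light chain pool was described per kilobase. Slc7a8 held 57.9 ± 7.20% of the summed level of Slc7a5, Slc7a6, Slc7a7, Slc7a8 and Slc7a10 in OIR and 53.5 ± 10.6% in nonOIR (SD, n = 8). Slc7a7 held 31.4 ± 5.92% and 34.3 ± 9.23%, and Slc7a5 held 8.41 ± 1.65% and 9.88 ± 1.48%. The summed light chains were 0.879 ± 0.128 times the level of Slc3a2 in OIR and 0.879 ± 0.131 times in nonOIR. The ratio ran from 0.744 to 1.09 over the OIR libraries and from 0.679 to 1.06 over the nonOIR libraries. Much of this spread went with the lane code. The mean ratio was 0.964 in nonOIR and 0.929 in OIR in the first lane, and 0.738 and 0.794 in the second. The Slc7 gene that the rule leaves out is also a light chain of Slc3a2 and is not in this sum. Every one of these shares overlapped between the groups.

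**Figure D2:**
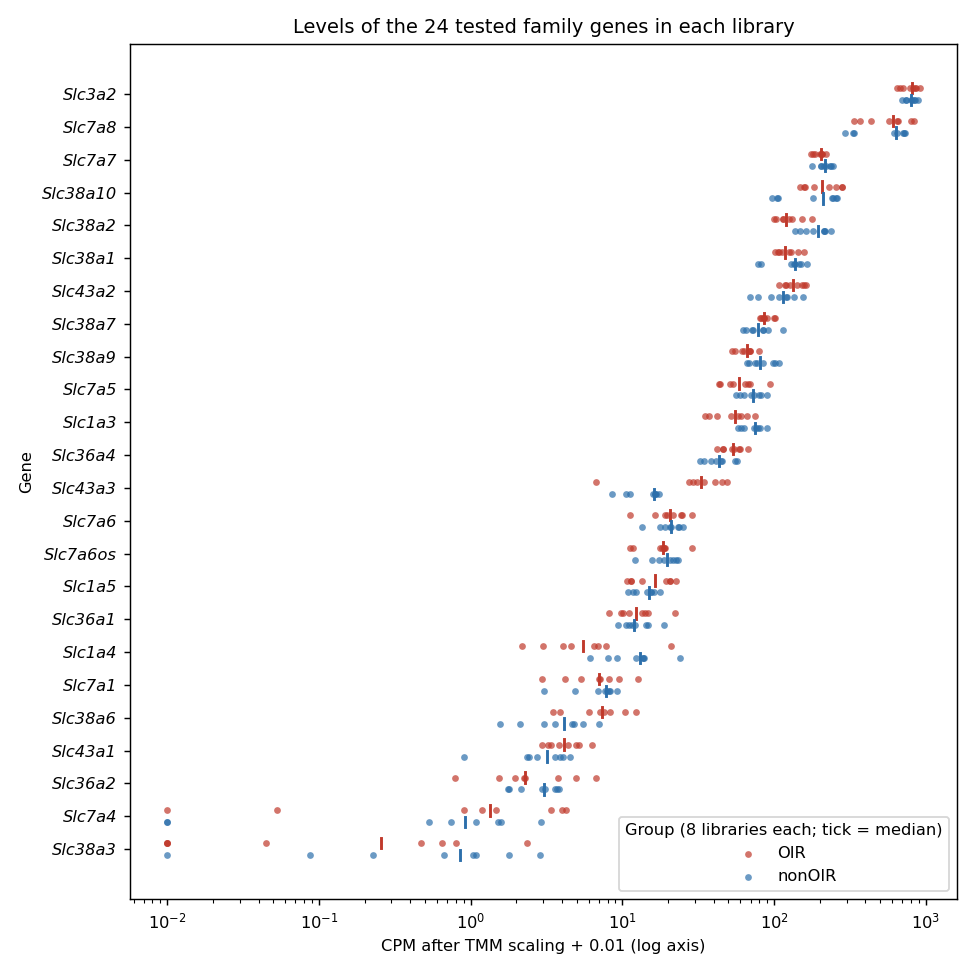
Level of each of the 24 tested members in each library (CPM after TMM scaling plus 0.01, log axis), with OIR in red, nonOIR in blue and a tick at each group's median of 8 libraries. Slc38a2 sits lower in OIR (median 121 against 196 CPM) and Slc43a3 higher (32.8 against 16.1 CPM), with OIR replicate 1 of Slc43a3 alone at 6.67 CPM.

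The cationic carriers of the CAT type, which work without a heavy chain, were scarce. Slc7a1 (CAT1), the widespread arginine and lysine carrier, had group medians of 7.81 CPM in nonOIR and 7.04 CPM in OIR, with a log2 fold change of 0.02 (95% interval -0.57 to 0.61). Slc7a2 (CAT2), the arginine carrier that macrophages induce on activation, did not pass 0.126 CPM in any nonOIR library. In OIR it reached 1.71 CPM in replicate 6 and 0.885 in replicate 7, and lay under 0.1 CPM in the other 6. Both of those libraries carry the second lane code, and the gene had too few counts to be tested. Slc7a4 was at 0 to 4.23 CPM and not called (log2 fold change 0.86, 95% interval -1.09 to 2.81), and 13.3% of its exon bases overlap those of P2rx6 on the opposite strand. The kit does not mark strand, so reads from that overlap cannot be assigned. Slc7a3 (CAT3) and Slc7a14 were not expressed.

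Of the glutamate carriers, Slc1a3 (GLAST, also the main glutamate carrier of Müller glia) was the only one with more than a few CPM. Slc1a3 (chromosome 15, 8634124 to 8710764) ran from 57.5 over a median of 75.0 to 89.5 CPM in nonOIR and from 34.9 over 55.1 to 74.6 CPM in OIR. The nonOIR median was above all 8 OIR libraries, and the OIR median was under all 8 nonOIR libraries. The log2 fold change was -0.45 ± 0.15 (SE), which did not pass over all libraries (edgeR adjusted p = 0.0675). Over the same libraries it passed narrowly with DESeq2 (-0.44, DESeq2 adjusted p = 0.0459) and with limma-voom (-0.48, limma adjusted p = 0.0495). In edgeR it passed without OIR replicate 1 (log2 fold change -0.53, edgeR adjusted p = 0.0231) and in the fit with lane (-0.44, edgeR adjusted p = 0.0486). Within the second lane it passed (-0.71, edgeR adjusted p = 0.0331), and within the first it was -0.25 (edgeR adjusted p = 0.552). The difference between the lanes did not pass its own test (edgeR adjusted p = 0.510). All 12 markers of Müller glia and astrocytes summed to 2088 to 19470 CPM in OIR and 1174 to 10450 in nonOIR. Apoe made up most of this, with means of 9542 and 6087 CPM. Of 8 tested markers 1 was called, Glul, which fell. Myeloid cells also express Apoe, Glul and Clu. The other 9 summed to 6.44 to 11.7 CPM in OIR and 8.41 to 19.7 CPM in nonOIR. Of these 9, Gfap (means 0.272 and 0.142 CPM) and S100b (0.322 and 0.161) were higher in OIR. The others were lower, Rlbp1 the most (2.52 and 6.40 CPM). The part of these cells in the result was not tested.

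The neuronal and retinal glutamate carriers were near the limit of detection. Slc1a2 (GLT-1) reached at most 1.505 CPM and Slc1a1 (EAAC1) at most 1.63 CPM. Slc1a7 (EAAT5), a carrier of photoreceptors and bipolar cells, was highest in nonOIR replicate 8 at 4.30 CPM and was at 0 in 8 of the 16 libraries. The summed photoreceptor markers were 457.5 CPM in that library. They were highest in nonOIR replicate 7, at 556 CPM, where Slc1a7 had 1.38 CPM, and in OIR replicate 2 they were 310.0 CPM with Slc1a7 at 0. The highest levels of these 3 rest on 22 to 99 counts in a library. Slc1a6 (EAAT4) was not expressed, with at most 2 counts in a library, and none of the 4 was tested.

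Both neutral Slc1 carriers were expressed. Slc1a5 (ASCT2), an exchanger that brings in glutamine, had 10.9, 14.9 and 17.7 CPM as lowest, median and highest values in nonOIR and 10.7, 16.5 and 22.6 in OIR (log2 fold change 0.19, 95% interval -0.19 to 0.58). Slc1a4 (ASCT1), an exchanger of serine, alanine, cysteine and threonine, ran from 6.11 over 13.0 to 24.1 CPM in nonOIR and from 2.18 over 5.51 to 20.9 CPM in OIR. The top OIR value of Slc1a4 was that of replicate 1, and the other 7 OIR libraries lay between 2.18 and 7.83 CPM. Over all libraries it was not called (log2 fold change -0.86, edgeR adjusted p = 0.177), and without OIR replicate 1 it was (log2 fold change -1.34 ± 0.31, SE, edgeR adjusted p = 0.00844).

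**Figure D3:**
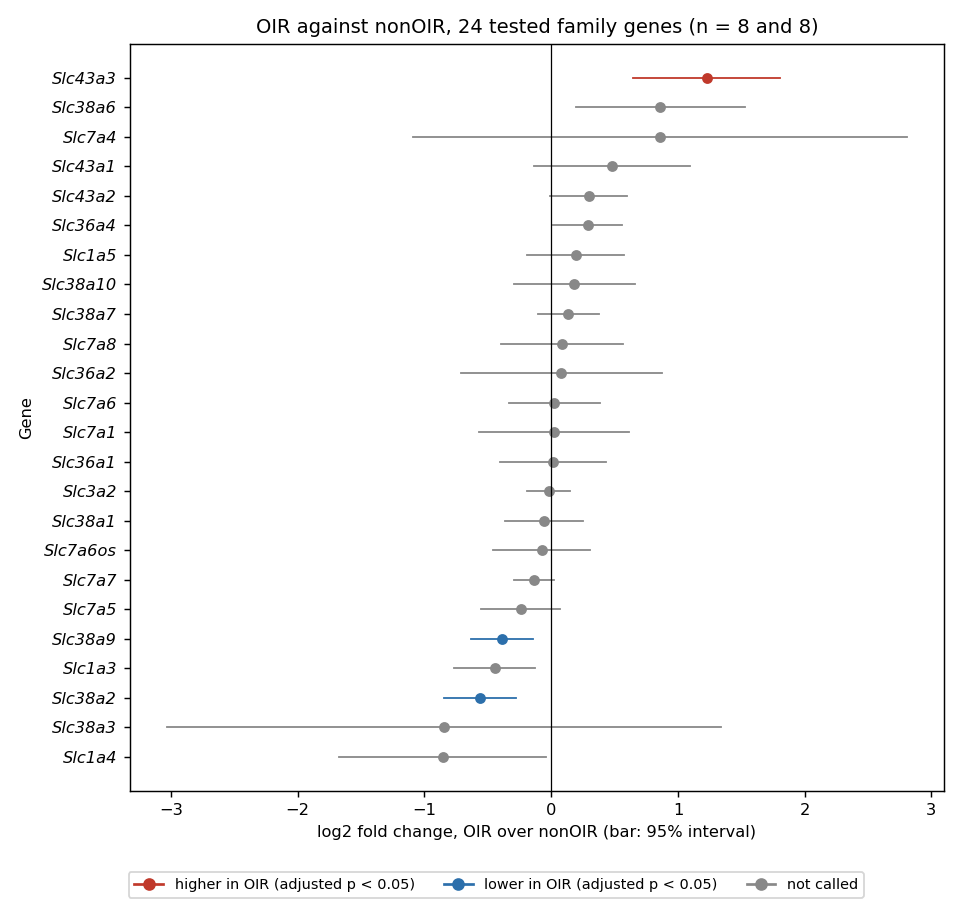
Log2 fold change of OIR over nonOIR (horizontal axis, with its 95% interval as a bar) for the 24 tested members, from the fit over 8 and 8 libraries. Slc43a3 (red, 1.23) rose, Slc38a2 (-0.56) and Slc38a9 (-0.39), in blue, fell, and the other 21 in grey were not called.

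The Slc38 family held both members that fell. Slc38a2 (SNAT2), a sodium-coupled carrier of glutamine and other small neutral amino acids whose gene is known to be induced when amino acids run short, spans chromosome 15 from 96687392 to 96699730 (ENSMUSG00000022462). It ran from 137 over a median of 196 to 236 CPM in nonOIR and from 100.5 over 121 to 176 CPM in OIR. No OIR library lay above the nonOIR median, although the ranges overlapped between 137 and 176 CPM. The mean fell from 188 ± 36.8 to 127 ± 26.2 CPM (SD, n = 8), to 0.677 of its nonOIR level (log2 fold change -0.56 ± 0.14, SE, edgeR adjusted p = 0.0118). The fall passed within each lane, at -0.59 in the first (edgeR adjusted p = 0.0391) and -0.44 in the second (edgeR adjusted p = 0.0436). It also passed in each of the other 26 alternative fits, with adjusted p between 0.000886 and 0.0436 over all of them.

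Slc38a9, the lysosomal membrane protein that reports luminal arginine to mTORC1 and lets out essential amino acids, fell to 0.765 of its nonOIR level. Slc38a9 (chromosome 13, 112660751 to 112738749) had 66.5, 80.8 and 107 CPM as lowest, median and highest values in nonOIR and 52.5, 65.9 and 79.0 CPM in OIR. All 8 OIR libraries lay under the nonOIR median. The log2 fold change was -0.39 ± 0.12 (SE) and its edgeR adjusted p of 0.0394 was near the threshold: it stayed under it in 14 of 28 alternative fits, and in 6 of the 16 that left out 1 library. Within the lanes it was -0.32 (edgeR adjusted p = 0.276) and -0.43 (edgeR adjusted p = 0.0924), and with library size alone as the scaling -0.32 (edgeR adjusted p = 0.108).

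The other expressed Slc38 genes were not called. Slc38a1 (SNAT1), the glutamine carrier that lies 44.5 kb from Slc38a2 on chromosome 15, ran from 78.5 over 136 to 166 CPM in nonOIR and from 102 over 119 to 158 CPM in OIR (log2 fold change -0.06, 95% interval -0.37 to 0.25). On the other side of Slc38a2, at 295.1 kb, the liver carrier gene Slc38a4 was not expressed. Slc38a7 (SNAT7), which exports glutamine from lysosomes, ran from 62.0 over 78.4 to 115 CPM in nonOIR and from 81.3 over 86.1 to 102 CPM in OIR, with all 8 OIR libraries above the nonOIR median and a log2 fold change of 0.14 (95% interval -0.10 to 0.37). Slc38a10 ran from 97.1 over 212 to 261 CPM in nonOIR and from 147 over 206 to 281 CPM in OIR, with a log2 fold change of 0.18 (95% interval -0.30 to 0.66). Slc38a6 ran from 1.56 over 4.12 to 7.02 CPM in nonOIR and from 3.47 over 7.35 to 12.2 CPM in OIR. Slc38a6 missed the threshold (log2 fold change 0.86 ± 0.32, SE, edgeR adjusted p = 0.0924) and passed with DESeq2 (0.87, DESeq2 adjusted p = 0.0464). Slc38a3 (SNAT3), a glutamine carrier of astrocytes and Müller glia, stayed at or under 2.85 CPM. Slc38a4, Slc38a5, Slc38a8 and Slc38a11 were not expressed, the last pair at 0 counts.

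The Slc36 carriers showed no called change. Slc36a4 (PAT4) ran from 32.5 over 43.2 to 56.7 CPM in nonOIR and from 42.3 over 53.4 to 67.6 CPM in OIR, and 7 of 8 OIR libraries lay above the nonOIR median. Its log2 fold change was 0.29 ± 0.13 (SE, edgeR adjusted p = 0.177), and 0.29 ± 0.10 with lane as a covariate (edgeR adjusted p = 0.0454). Slc36a1 (PAT1), found on lysosomes as well as on the cell surface, had medians of 11.8 CPM in nonOIR and 12.2 in OIR (log2 fold change 0.02, 95% interval -0.40 to 0.43). Slc36a2 (PAT2) had medians of 3.02 and 2.26 CPM. Slc36a3, Slc36a3os and Slc36a1os, from the same stretch of chromosome 11, were not expressed.

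All 3 Slc43 genes were expressed, and 1 rose. Slc43a3, whose protein carries purine nucleobases rather than amino acids, lies on chromosome 2 from 84936579 to 84958509. It ran from 8.53 over 16.1 to 17.5 CPM in nonOIR and from 6.67 over 32.8 to 49.3 CPM in OIR. In OIR 7 libraries lay at 27.6 CPM or above, over every nonOIR library, and replicate 1 lay under all 8 of them. The mean rose 2.34-fold, from 14.1 ± 3.45 to 33.1 ± 13.2 CPM (SD, n = 8). On the log2 scale this was 1.23 ± 0.28 (SE, edgeR adjusted p = 0.00822), or 1.39 ± 0.18 without OIR replicate 1 (edgeR adjusted p = 0.000116). It passed in the second lane (1.62, edgeR adjusted p = 0.00156) and not in the first (0.96, edgeR adjusted p = 0.197), a difference between lanes that did not pass its own test (edgeR adjusted p = 0.673). With limma-voom it missed the threshold (1.09, limma adjusted p = 0.0574). The gene is also expressed in endothelial cells, and 0 of the 4 endothelial and pericyte markers tested were called. The summed level of all 12 such markers (16.0 to 38.9 CPM in OIR, 25.8 to 53.8 in nonOIR) was mostly Pecam1. The tested ones had a median log2 fold change of -0.371. Of these, Pecam1 (means of 18.1 CPM in OIR and 27.8 in nonOIR), Kdr (4.41 and 5.44) and Vtn (3.19 and 4.33) were lower in OIR. Cdh5 was higher (1.37 and 0.695 CPM). Among the untested markers Cspg4 was higher in OIR (0.961 and 0.211 CPM) and Rgs5 was lower. Of 4 tested monocyte and granulocyte markers (median log2 fold change 1.82) Fn1 rose, with means of 22.1 CPM in OIR and 3.21 in nonOIR. Plac8 (3.23 and 0.831 CPM, edgeR adjusted p = 0.0510) and Itgal (9.82 and 3.09, edgeR adjusted p = 0.0846) were higher in OIR without passing. Ccr2 had 5.22 and 5.44 CPM. Summed border macrophage markers, given above by lane, were higher in every second-lane OIR library than in any other library. The part of these cell types in the rise was not tested.

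Slc43a2 (LAT4), a carrier of branched-chain and aromatic amino acids, ran from 69.9 over 114 to 154 CPM in nonOIR and from 107 over 134 to 163 CPM in OIR, with 7 of 8 OIR libraries above the nonOIR median. It was not called over all libraries (log2 fold change 0.30 ± 0.14, SE, edgeR adjusted p = 0.211) and passed with lane as a covariate (0.32 ± 0.09, edgeR adjusted p = 0.0192). Slc43a1 (LAT3), 73.0 kb from Slc43a3, had medians of 3.16 CPM in nonOIR and 4.08 in OIR (log2 fold change 0.48, 95% interval -0.13 to 1.10).

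**Figure D4:**
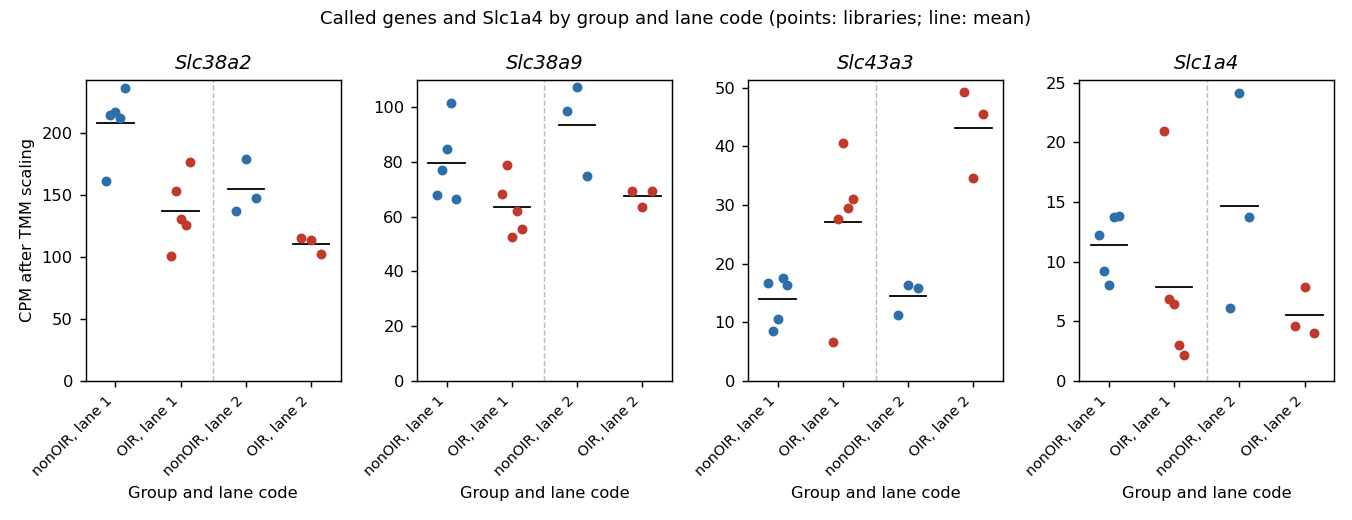
Levels of the 3 called members and of Slc1a4 in each library (CPM after TMM scaling, linear from 0), split by group and lane code, with 5 libraries per group in lane 1 and 3 in lane 2 and a line at each mean. OIR replicate 1 (6.67 CPM for Slc43a3 and 20.9 CPM for Slc1a4) lies apart from the other OIR points of lane 1 in both panels.

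The lane code went with larger differences than OIR for several members. In the fit with group and lane, a test added after the data were seen, 7 of 24 members (29.2%, against 24.8% of all genes) differed between the lane codes, 6 of them higher in the first. Slc7a8 averaged 684 CPM in nonOIR and 700 in OIR in the first lane against 320.1 and 379.5 in the second, a 1.98-fold difference (edgeR adjusted p = 2.49e-07). Its lowest first-lane library (569.5 CPM) lay above its highest second-lane library (432 CPM). Slc38a10 was 1.91-fold higher in the first lane (edgeR adjusted p = 1.05e-05), Slc43a2 1.42-fold, Slc38a1 1.39-fold, Slc38a2 1.29-fold and Slc3a2 1.18-fold, while Slc36a4 was 1.297-fold higher in the second. Among the light chains, the share of Slc7a8 was 60.9% in nonOIR and 62.7% in OIR in the first lane and 41.1% and 49.9% in the second, where Slc7a7 reached 44.8% and 37.8%. Slc7a8 thus led the light chains in the first lane in both groups, and in the second lane it led in OIR only on these means. Apoe, a lipoprotein gene, was 6.96-fold higher in the first lane in the same fit (edgeR adjusted p = 6.46e-10), and its part in the members' lane differences was not tested.

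**Figure D5:**
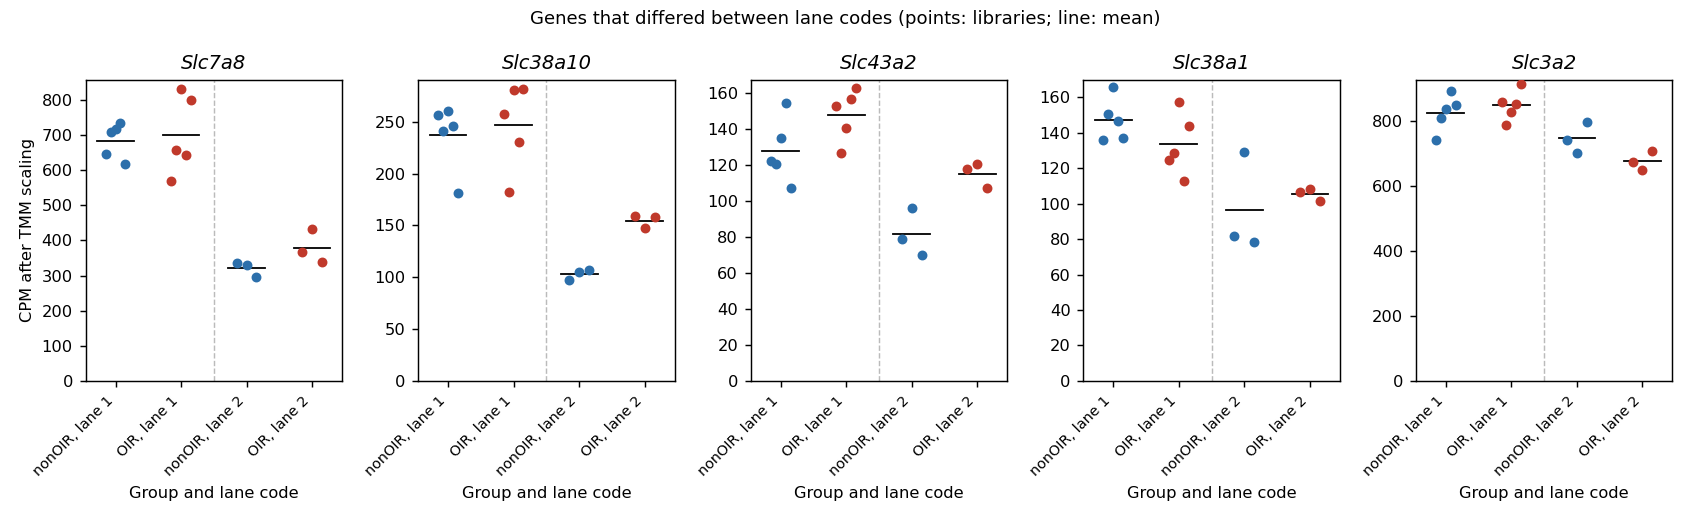
Levels of 5 of the 7 members that differed between lane codes (CPM after TMM scaling, linear from 0), by group and lane code, each point a library and each line a mean. Slc7a8 lies at 569.5 CPM or above in lane 1 and at 432 CPM or below in lane 2 in both groups.

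With the lane as a covariate, 17.3% of all genes and 6 members were called between OIR and nonOIR: Slc43a3, Slc43a2 and Slc36a4 higher, and Slc38a2, Slc38a9 and Slc1a3 lower. Slc38a10 passed in the second lane alone, at 103 ± 5.07 CPM in nonOIR and 155 ± 6.60 in OIR (SD, n = 3, log2 fold change 0.63, edgeR adjusted p = 0.00410), while in the first lane the means were 237 and 246 CPM. Whether the group effect differed between lanes was tested for all genes with an interaction term. It passed for 0 of the 24 members with edgeR's quasi-likelihood test (0.496% of all genes), and Slc38a10 was the 1 member with an unadjusted p under 0.05 (0.01, edgeR adjusted p = 0.197). No other tool was run on the interaction.

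Other genes of amino acid handling were read from lists, to be set beside all genes tested, of which 6.39% rose and 4.56% fell, with a median of -0.0305. Of 20 tested carriers of amino acids, peptides and related molecules outside these families, 3 rose and 0 fell (median log2 fold change 0.0921). Pqlc2, a lysosomal exporter of cationic amino acids, rose 1.396-fold, from 45.4 ± 7.56 to 63.4 ± 7.01 CPM. Mfsd12, which brings cysteine into lysosomes, rose 1.49-fold, from 53.9 ± 14.2 to 80.4 ± 19.6 CPM, and the creatine carrier gene Slc6a8 2.26-fold, from 1.42 ± 0.435 to 3.22 ± 1.47 CPM (SD, n = 8). Of 37 tested genes that link lysosomal amino acids to mTORC1, 1 rose and 1 fell (median 0.0365). The scaffold subunit gene Lamtor2 rose 1.33-fold to 58.4 ± 9.63 CPM, and Sesn1, an inhibitor of the pathway, fell to 0.802 of its nonOIR level, at 191 ± 23.2 CPM.

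Enzymes that make or use the transported amino acids were mostly not called. Of 22 tested genes of glutamate and glutamine metabolism 1 rose and 1 fell (median 0.141): Gclm, a subunit of the enzyme that starts glutathione synthesis, rose 4.02-fold, from 33.8 ± 3.63 to 136 ± 69.1 CPM, and glutamine synthetase (Glul) fell to 0.797 of its nonOIR level, from 285 ± 20.7 to 227 ± 31.0 CPM. In the serine and glycine list 3 of 12 rose and 0 fell (median 0.268), against 6.39% and 4.56% of all genes. These were Psat1 (1.69-fold, from 86.2 ± 10.4 to 146 ± 41.9 CPM) and Phgdh (1.43-fold), both of serine synthesis, and the mitochondrial folate enzyme gene Mthfd1l (1.55-fold). Of 16 tested genes of arginine and polyamine metabolism 1 rose and 0 fell (median 0.249), namely Ass1, which makes the precursor of arginine, at 1.34 ± 0.904 CPM in OIR and 0.176 ± 0.261 in nonOIR (SD, n = 8). None of 17 tested genes of branched-chain amino acid breakdown passed (median -0.0102). Of 14 tested genes around ATF4, the transcription factor of the amino acid response, 1 rose and 0 fell (median -0.0217), the partner factor gene Cebpb by 1.34-fold, and Atf4 itself was not called, at 57.2 ± 7.89 CPM in OIR and 67.5 ± 6.97 in nonOIR (edgeR adjusted p = 0.120).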

How the data were processed

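Whole-number counts per gene were used as deposited by the authors. Build mm10, DESeq2 2.11.40.2, featureCounts 1.6.2, STAR 2.6.0b-1 and FastQC 0.72 stand in the submitters' processing notes, with no steps or roles. The sources used here name no annotation. The authors' deposited signal (normalized) columns and base mean, log2 fold changes, scores (standard error, Wald statistic) and p-values entered no test. Per the labels' protocols, SMARTer v4 and Nextera XT libraries began from 750 pg of RNA, with single reads, and no step that marks strand or molecules is named, so limits on counts cover counting error only.

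Genes passing filterByExpr were scaled by TMM and tested two-sided with edgeR 4.0.16 in R 4.3.3 (glmQLFit, robust, and glmQLFTest), with Benjamini-Hochberg adjustment over 12496 genes. Standard errors and 95% intervals derive from the F statistic. The procedure was tested on simulated data. Members, lists and tests were chosen with earlier results of these data known; full values go to called members, those averaging at least 20 CPM in a group and those an alternative called. The E-box, hypoxia and other motifs were chosen likewise. Of the list symbols, Ahsp and Slc66a4 were not matched, and Pqlc2 and Gcn1l1 replaced newer names. All 44 members matched GENCODE M21 (GRCm38). Alternatives covered scaling, filters, DESeq2 1.42.0, limma-voom 3.58.1, lane, replicate number and omitted libraries.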

Additional observations from a re-analysis of the deposited data

Results flagged for a closer look

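Slc43a3 in OIR replicate 1, at 6.67 CPM, lay far from the other 7 OIR libraries, of which the next lowest had 27.6 CPM. The gap was 0.700 of the group's whole range on a log2(CPM + 1) scale, above Dixon's 95% critical value for 8 samples. This was the only flag among 28 groups (14 members in 2 groups), where chance flags about 1 in 20 groups. The rise of Slc43a3 had a log2 fold change of 1.23 with this library and 1.39 without it.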

How the results depend on the processing

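The 3 counts were recomputed under 28 alternatives. Genes called (1368) became 2159 with lane as a covariate and 417 in lane 1 alone. Members called higher (1) became 2 with DESeq2, 0 with limma-voom (where Slc43a3 had limma adjusted p = 0.0574), 3 with lane as a covariate, 0 in lane 1 and 3 in lane 2. Members called lower (2) became 1 with library size alone, with no low-count filter and in lane 1, and 4 without both OIR replicate 1 and nonOIR replicate 8; it was 3 with DESeq2, limma-voom and lane as a covariate, each adding Slc1a3. Leaving out 1 library at a time gave 935 to 1556 genes, 1 member higher throughout and 1 to 4 members lower: 4 without OIR replicate 1 (Slc1a3 and Slc1a4 added), and 1, without Slc38a9, when any of OIR replicates 3 to 8 or nonOIR replicates 3, 4, 6 and 7 was left out. Of the single-member values, 639 kept their side of the threshold, 15 gained a call, 16 lost one and none that was called changed sign. Slc3a2, Slc7a1, Slc7a6, Slc36a1 and other members near 0 changed sign under some settings without a call.

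Scaling by library size alone moved the median of all genes by 0.0684 and put 73.7% of called genes higher in OIR (1020 of 1384), against 58.3% with TMM and 51.1% with the upper quartile. Whether replicate numbers pair the samples could not be decided from the values. Correlations of deviations between same-numbered libraries ran from 0.0118 to 0.295, and 4 of 8 exceeded 0.1. Those of replicates 6 to 8, which carry the second lane code, were 0.295, 0.268 and 0.2. Same-numbered libraries share a lane code and lane was not taken out of the deviations, so pairing and lane are mixed here. Of the OIR libraries, 2 of 8 correlated best with their own number. With the replicate number as a block, 2 members were called higher (Slc43a2 added), 3 lower (Slc1a3 added) and 1679 genes in all. With no filter, 977 genes were called. Counts of a few per library limit Slc7a4, Slc38a3 and the 4 members that were not tested.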
